A study of Sus scrofa with 15 samples.

Results

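The comparison described here sets mammary tissue taken 2 d before parturition against tissue taken 14 d before it, the -2vs-14 time comparison. It rests on 6 libraries, 3 at each of the 2 time points, out of 15 libraries in the series. The animals were 3 crossbred Danish Landrace × Yorkshire sows of the 2nd parity, chosen for the highest colostrum yield, and the same 3 sows were biopsied at every time point. Each sow received another combination of fiber and fat source, so the effect of a sow and that of its diet cannot be told apart, and the Methods have the test diets start late in gestation, near or after the first biopsy, so that time and the change of diet cannot be told apart either. A core needle biopsy holds secretory epithelium, myoepithelium, stroma, vessels, fat and blood, and messenger RNA of the whole piece was sequenced. In such samples, fewer cells of a type and less RNA per cell cannot be told apart.

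In late pregnancy the mammary gland of the sow passes from growth of its alveoli to secretion. Colostrum is formed and stored in the days before parturition, while high progesterone still restrains copious secretion, and its fall around parturition, together with prolactin, starts milk secretion. The secretory cell makes caseins and whey proteins in the endoplasmic reticulum (ER) and Golgi, forms lactose in the Golgi lumen with alpha-lactalbumin as the regulatory subunit of lactose synthase, and buds fat droplets off inside a membrane that carries butyrophilin and xanthine oxidoreductase.

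Of 25322 genes in each count table, 13503 reached 1 CPM, a count scaled to library size, in 3 or more of the 15 libraries and were tested. The quasi-likelihood model of edgeR, fitted with the sow as a block, gave 1172 differentially expressed genes (DEG), which is 8.68% of the genes tested. For a call, time as a whole and the -2vs-14 time comparison each needed an adjusted p (Benjamini-Hochberg) up to 0.05. There were 684 upregulated DEG (5.07%) and 488 downregulated DEG (3.61%), and 506 and 377 of them had a gene name. These shares of all tested genes, 5.07% and 3.61%, are those to set beside each count of list members below. The median log2 fold change was 0.85 in the upregulated and -0.80 in the downregulated DEG, against -0.01 over all tested genes. The large changes were mostly increases, since 51 upregulated and 3 downregulated DEG changed at least 8-fold, and 281 and 159 at least 2-fold. In 1028 of the 1172 DEG the libraries of the 2 time points did not overlap, as they did not in 29.3% of all tested genes.

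**Figure D1:**
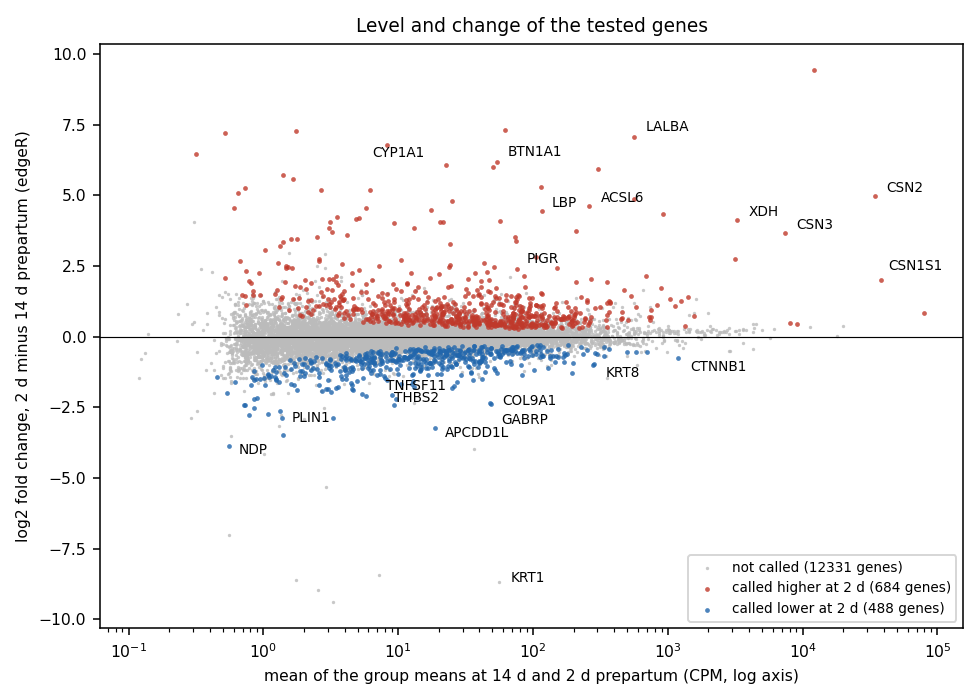
Each point is 1 of 13503 tested genes, with the mean of both time points in CPM on a log axis and the log2 fold change of 2 d minus 14 d prepartum on the vertical axis, red for the 684 genes called higher and blue for the 488 called lower. The highest named points on the right are casein genes, the decreases lie closer to 0, and the grey points below -5, KRT1 among them, were not called.

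Total counts ran from 16862026 to 19292238 at 14 d and from 13459054 to 19952918 at 2 d prepartum. The 10 genes with the highest counts held between 16.6% and 19.5% of a library at 14 d and between 25.1% and 35.7% at 2 d, and the TMM factors that offset this ran from 1.15 to 1.24 and from 0.829 to 1.007. Without TMM the median of all genes moved to -0.42, and 266 genes were called higher and 3059 lower. Each median of a whole list given here that lay between 0 and 0.37 was below 0 without TMM, and each of these stayed above the median of all genes. The RNA integrity number (RIN) in the paper's summary of RNA extraction and quality was lower at the earlier time point in every sow. With RIN added to the fit 0 genes were called by edgeR, while 1114 had an unadjusted p up to 0.05, the median standard error over all genes rose from 0.18 to 0.42, and 1167 of the 1172 DEG kept their sign. Without the sow in the fit 384 genes were called, and all 384 were among the 1172. The library of sow 2 at 14 d stood apart. It held 333 CPM of KRT1 and 207 CPM of KRT10, keratins of the outer skin, whereas the other 5 libraries held at most 0.485 and 4.66 CPM. Neither gene was called (edgeR adjusted p = 0.192 and 0.210). Without this library 297 genes were called, 177 higher and 120 lower, and without 1 of the other 5 libraries between 315 and 906. The lowest of these others was without the library of sow 2 at 2 d prepartum.

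Of 111 DEG named by the rule given with the processing, 45 stayed called in each of the 6 fits without 1 library. The 15 that were called in none of these fits were EPCAM, DSP, SLC2A12, PRPF39, SPP1, MVK, LSS, PIK3AP1, SAT1, CITED1, MET, PLIN4, DUSP1, COX2 and ATP6, and their values below carry that limit. HSD17B7, KRT8, VIM, AGT, AQP3, ACSL1, SLA-DQA, UAP1, B4GALT3, DOLK, UQCR10 and BHLHE41 were each called in 1 of the 6 fits. Called in 2 fits were TNFSF11, ACVR1, AMHR2, CP, C4A, C1QL2, CTNNB1, PVALB, PDE6H, NEU1, HEXA, DEF6, ADGRF5, CITED2, LGALS3, SGMS1, IL13RA2, MUC15 and APC2. XBP1, TNFRSF11A, PER2, CRY2, SPTLC3, GADD45G and ATP2B2 were called in 3 of the 6 fits.

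Of the genes named here LALBA had the largest increase. The paper ranks CSN1S2, the alpha-S2-casein gene, above it in this comparison, but CSN1S2 is not among the genes named here. The named casein genes rose by smaller factors, at far higher levels. LALBA (ENSSSCG00000024573, chromosome 5 of Sscrofa10.2 from 82539971 to 82542256), which encodes alpha-lactalbumin, had 15.1, 6.41 and 1.12 CPM in sows 1, 2 and 3 at 14 d prepartum. At 2 d prepartum it had 1379.5, 1892 and 90.9 CPM (log2 fold change 7.07, SE 1.05, edgeR adjusted p = 0.00264). It was higher at the later time point in every sow, and sow 3 was the lowest at both. CSN2, which encodes beta-casein, rose from 3178, 2183 and 1069.6 CPM to 68067, 97481 and 33129 CPM (log2 fold change 4.97, SE 0.72, edgeR adjusted p = 0.00230). CSN3, which encodes the micelle-stabilizing kappa-casein, rose from 890.4, 1203 and 799 CPM to 13677, 21063 and 6414 CPM (log2 fold change 3.68, SE 0.42, edgeR adjusted p = 0.000656). CSN1S1, which encodes alpha-S1-casein, rose from 15818, 15458 and 13189 CPM to 54220.0, 81326 and 46904 CPM (log2 fold change 2.02, SE 0.33, edgeR adjusted p = 0.00438). For each of these genes the lowest library at 2 d prepartum was that of sow 3 and lay above the highest at 14 d.

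The largest increase of all belonged to a gene without a name in the tables used, ENSSSCG00000009263. It had 58.8, 21.0 and 9.36 CPM at 14 d and 23155, 47314 and 2589 CPM at 2 d prepartum (log2 fold change 9.42, SE 1.09, edgeR adjusted p = 0.000656). It lies on chromosome 8 of Sscrofa10.2 from 148310617 to 148326957, between CSN2 (148228429 to 148236984) and CSN3 (148440837 to 148444886). Whether this gene is CSN1S2, which the paper ranks first among the increases of this comparison, was not tested. From CSN1S1, which begins at 148201997, to ODAM, which ends at 148465034, 6 genes were tested and all 6 were called higher. Over all tested genes 5.07% were. Both ends, and CSN2, CSN3 and ENSSSCG00000009263 between them, are DEG named here, so this count is a description with no test. ODAM, named for a protein of tooth-forming cells, stayed low, with 3 reads over the 3 libraries of 14 d and 58 over those of 2 d, a ratio of 27.1 with a 95% interval from 8.81 to 135 that covers counting error only. The casein genes on this stretch and ENSSSCG00000009263 together took 2.30, 2.33 and 1.84% of all counts at 14 d and 14.3, 20.5 and 8.96% at 2 d prepartum, a description with no test, since the latter gene was taken in for its increase. The 2nd largest increase, of ENSSSCG00000016731 on chromosome 18 (55190838 to 55192844), ran from 1.05, 0.713 and 0.291 CPM to 173, 186 and 12.03 CPM (log2 fold change 7.32, SE 0.94, edgeR adjusted p = 0.00105).

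**Figure D2:**
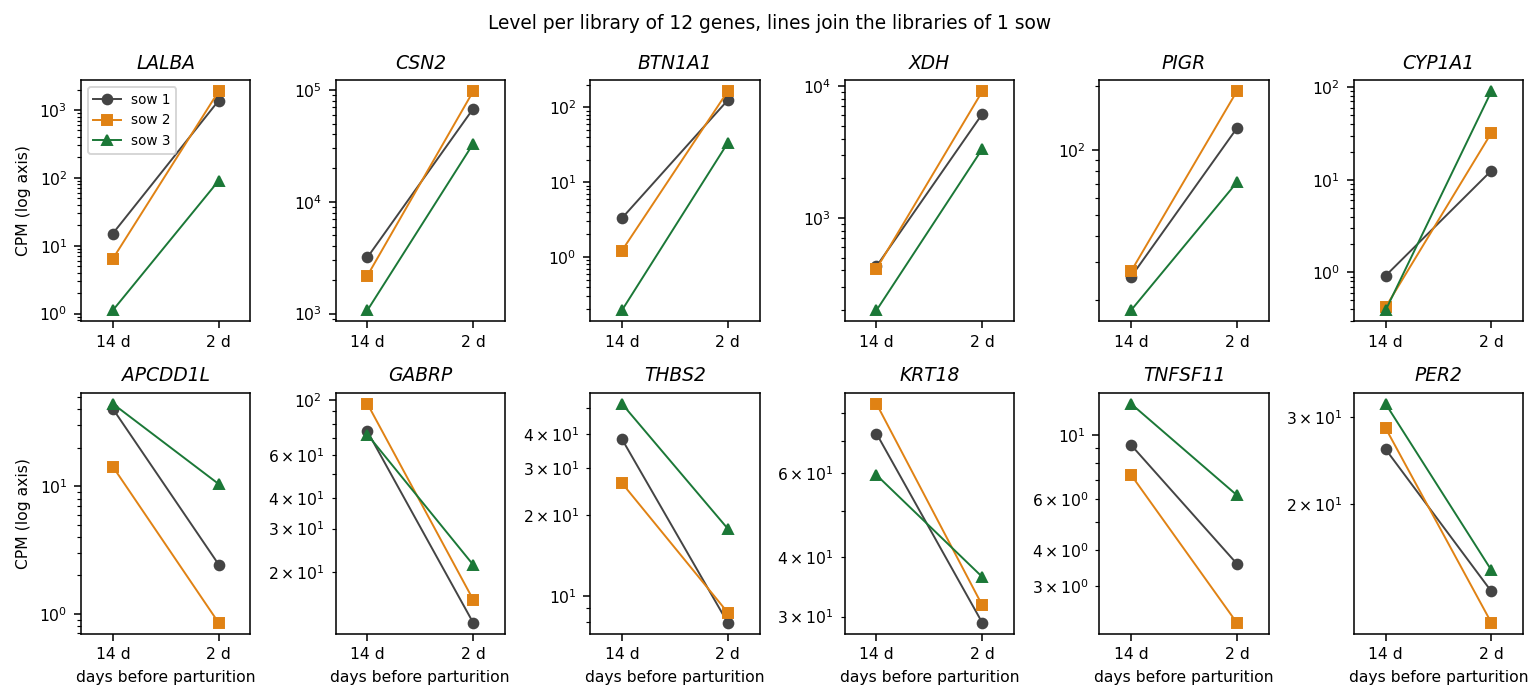
The level of 12 genes in each of the 6 libraries, in CPM on log axes of their own range, with lines joining the 2 libraries of a sow. The upper 6 genes rise and the lower 6 fall in all 3 sows, and for LALBA, CSN2, BTN1A1, XDH and PIGR sow 3 ends lowest, while for CYP1A1 it ends highest.

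Lactose is formed from glucose and UDP-galactose, and the enzymes and carriers on that route did not all move one way. Of 14 tested members of the list of milk proteins and lactose synthesis, 6 were upregulated and 2 downregulated, with a median log2 fold change of 0.88. The shares over all tested genes were 5.07% and 3.61%. In this list limma-voom called 6 higher and 1 lower, and DESeq2 4 and 2. UGP2, which makes UDP-glucose, rose from 235, 238 and 182 CPM to 448, 805 and 325 CPM (log2 fold change 1.18, SE 0.18, edgeR adjusted p = 0.00302). SLC35A2, which carries UDP-galactose into the Golgi, rose from 23.1, 19.95 and 17.1 CPM to 46.7, 46.6 and 31.1 CPM (log2 fold change 1.04, SE 0.18, edgeR adjusted p = 0.00545). In both genes the 2 time points did not overlap. HK1, a hexokinase that phosphorylates glucose, fell from 76.3, 75.3 and 82.2 CPM to 55.3, 49.9 and 53.2 CPM (log2 fold change -0.56, SE 0.08, edgeR adjusted p = 0.00202). SLC2A12, a sugar carrier of the glucose transporter family, was low and fell from 2.38, 1.43 and 2.09 CPM to 0.926, 0.787 and 1.03 CPM (log2 fold change -1.08, SE 0.29, edgeR adjusted p = 0.0360). Without 1 library, 7 of the 8 called members were called in each of the 6 fits.

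Of the 8 tested genes of the milk fat globule and lipid droplet coat, 3 rose and the other 5 did not pass the test. BTN1A1, which encodes butyrophilin of the globule membrane, had 3.30, 1.22 and 0.194 CPM at 14 d and 124, 164 and 33.4 CPM at 2 d prepartum (log2 fold change 6.19, SE 0.74, edgeR adjusted p = 0.000798). XDH, which encodes xanthine oxidoreductase, binding partner of butyrophilin at that membrane, went from 429.7, 412 and 199 CPM to 6151, 9135 and 3340.1 CPM (log2 fold change 4.12, SE 0.46, edgeR adjusted p = 0.000603). MUC15, a mucin of the same membrane, went from 126, 163 and 116 CPM to 531, 892 and 281 CPM (log2 fold change 1.95, SE 0.47, edgeR adjusted p = 0.0241). In all 3 genes the groups did not overlap. The list had 0 downregulated DEG and a median of 1.40. Leaving out 1 library left 2 or 3 of them called.

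For fatty acids and triacylglycerol, 14 of 56 tested genes, XDH included, were upregulated and 2 downregulated, with a median log2 fold change of 0.36. The shares over all tested genes were 5.07% and 3.61%. In the shorter list before its extension 3 of 24 were upregulated and 1 downregulated, with a median of 0.14. The enzymes of the first acylation of glycerol-3-phosphate were among the increases. GPAM, its mitochondrial acyltransferase, rose from 530.2, 519 and 490.0 CPM to 924, 1039 and 983 CPM (log2 fold change 0.94, SE 0.17, edgeR adjusted p = 0.00764). GPAT4, an acyltransferase of the ER, rose from 119.9, 124 and 104 CPM to 278, 288 and 176 CPM (log2 fold change 1.06, SE 0.19, edgeR adjusted p = 0.00715). GPAT3, also of the ER, rose from 16.9, 9.52 and 11.2 CPM to 35.6, 21.9 and 19.2 CPM (log2 fold change 1.02, SE 0.16, edgeR adjusted p = 0.00306). ACSL6, which activates long-chain fatty acids, had the largest fold change of the list. It had 55.2, 18.3 and 3.15 CPM at 14 d, a wide spread, and 677, 691 and 125 CPM at 2 d prepartum (log2 fold change 4.62, SE 0.88, edgeR adjusted p = 0.00904), without overlap. ACSL1, another enzyme of that family, fell from 18.9, 20.4 and 19.7 CPM to 12.6, 13.5 and 14.7 CPM (log2 fold change -0.54, SE 0.15, edgeR adjusted p = 0.0428), and so did the desaturase gene SCD5, from 5.36, 7.80 and 9.17 CPM to 3.53, 3.09 and 4.72 CPM (log2 fold change -0.96, SE 0.18, edgeR adjusted p = 0.00764).

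The central genes of fatty acid synthesis from acetyl-CoA did not pass the test. FASN, fatty acid synthase, had 517, 401 and 459.9 CPM and 706, 757 and 606 CPM at the 2 time points (log2 fold change 0.62, SE 0.43, edgeR adjusted p = 0.386). ACACA, acetyl-CoA carboxylase, had 33.2, 34.5 and 44.3 CPM and 105, 112 and 62.1 CPM (log2 fold change 1.27, SE 0.47, edgeR adjusted p = 0.111). SCD, the main desaturase, had 203, 247 and 230.2 CPM and 736, 675 and 326 CPM (log2 fold change 1.204, SE 0.53, edgeR adjusted p = 0.170). In each of the 3 genes all libraries of 2 d lay above those of 14 d, as they did in 15.2% of all tested genes. A missing call does not show that a gene did not change. At 1 d postpartum FASN had 3649, 477 and 873 CPM, ACACA 549, 82.2 and 124 CPM and SCD 5098, 519 and 1004 CPM, so that in each gene sow 1 and sow 3 were above their own level at 2 d prepartum and sow 2 was below it. The fits without 1 library called between 4 and 13 members of the fatty acid list, fewest without the library of sow 2 at 14 d.

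Cholesterol and sphingolipid genes gave few calls. Of 19 tested genes of cholesterol synthesis 3 were upregulated and 0 downregulated (median 0.33, and 2 of 7 with a median of 0.24 before the list was extended), and without 1 library at most 1 was called. These were HSD17B7, which acts late in the pathway (log2 fold change 1.203, SE 0.26, edgeR adjusted p = 0.0161), LSS, the lanosterol synthase (log2 fold change 0.92, SE 0.25, edgeR adjusted p = 0.0386), and MVK, mevalonate kinase (log2 fold change 0.91, SE 0.25, edgeR adjusted p = 0.0424). Of 24 tested sphingolipid genes 2 were upregulated and 1 downregulated (median 0.16), beside 5.07% and 3.61% over all tested genes. The 12 of the list before its extension had a median of -0.07. SPTLC3, a subunit of the enzyme that starts sphingolipid synthesis, fell from 7.61, 10.1 and 12.95 CPM to 2.95, 4.42 and 6.13 CPM (log2 fold change -1.20, SE 0.26, edgeR adjusted p = 0.0169), whereas ORMDL3, a regulator that restrains this enzyme, rose from 15.4, 14.3 and 12.3 CPM to 27.1, 20.5 and 22.1 CPM (log2 fold change 0.73, SE 0.13, edgeR adjusted p = 0.00632). SGMS1, a sphingomyelin synthase, rose as well (log2 fold change 0.51, SE 0.12, edgeR adjusted p = 0.0269). Leaving out 1 library gave between 1 and 3 calls in this list, 1 without either library of sow 2.

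The ER and the vesicle traffic to the Golgi gave the list with the most DEG. Of 95 tested members 32 were upregulated and 0 downregulated, beside 5.07% and 3.61% of all tested genes. The median log2 fold change was 0.55 against -0.01 over all genes, and 92 of the 95 were above 0. The list before its extension had 12 upregulated and 0 downregulated of 47 (median 0.41). PDIA4, a protein disulfide isomerase that helps nascent proteins fold, had 205, 211 and 218 CPM at 14 d and 567, 561 and 419.9 CPM at 2 d prepartum (log2 fold change 1.27, SE 0.20, edgeR adjusted p = 0.00369). KDELR3, a receptor that returns ER proteins from the Golgi, had 16.5, 18.3 and 19.6 CPM and 64.0, 79.1 and 33.95 CPM (log2 fold change 1.65, SE 0.26, edgeR adjusted p = 0.00337). ARFGAP3, which acts in the uncoating of COPI vesicles, had 167, 145 and 137 CPM and 275, 289 and 222 CPM (log2 fold change 0.80, SE 0.11, edgeR adjusted p = 0.00119). The groups did not overlap in any of these genes, and sow 3 was the lowest at 2 d. GOLPH3L, a Golgi protein, rose from 49.7, 36.9 and 37.5 CPM to 78.3, 100.2 and 58.6 CPM (log2 fold change 0.92, SE 0.16, edgeR adjusted p = 0.00542).

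XBP1, the transcription factor of the unfolded protein response that drives ER expansion in secretory cells, rose from 587, 564 and 391 CPM to 1029.6, 1526 and 846 CPM (log2 fold change 1.10, SE 0.23, edgeR adjusted p = 0.0133). HSPA5, the main ER chaperone, had 247, 347 and 275 CPM and 515, 488 and 333 CPM and did not pass the test (log2 fold change 0.61, SE 0.23, edgeR adjusted p = 0.120). Among further DEG of the list, chosen after their values were seen, were DERL3, a factor of ER-associated degradation, at a log2 fold change of 1.88, SDF2L1, a cofactor of the ER chaperone, at 1.58, and CREB3L1, a transcription factor bound to the ER membrane, at 1.12. The called members covered signal peptidase (SPCS1, SPCS2), the translocon (SEC61A1, SEC62), oligosaccharyl transferase (STT3A, RPN1) and the COPI coat (COPA, COPE, COPG1, COPZ1), at log2 fold changes from 0.51 to 0.92. This set was also picked after the values were seen. In the fits without 1 library between 5 and 24 members were called, with 5 without either library of sow 2, and the median stayed between 0.43 and 0.64. With the total counts unadjusted the median of the list stood 0.57 above that of all genes.

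**Figure D3:**
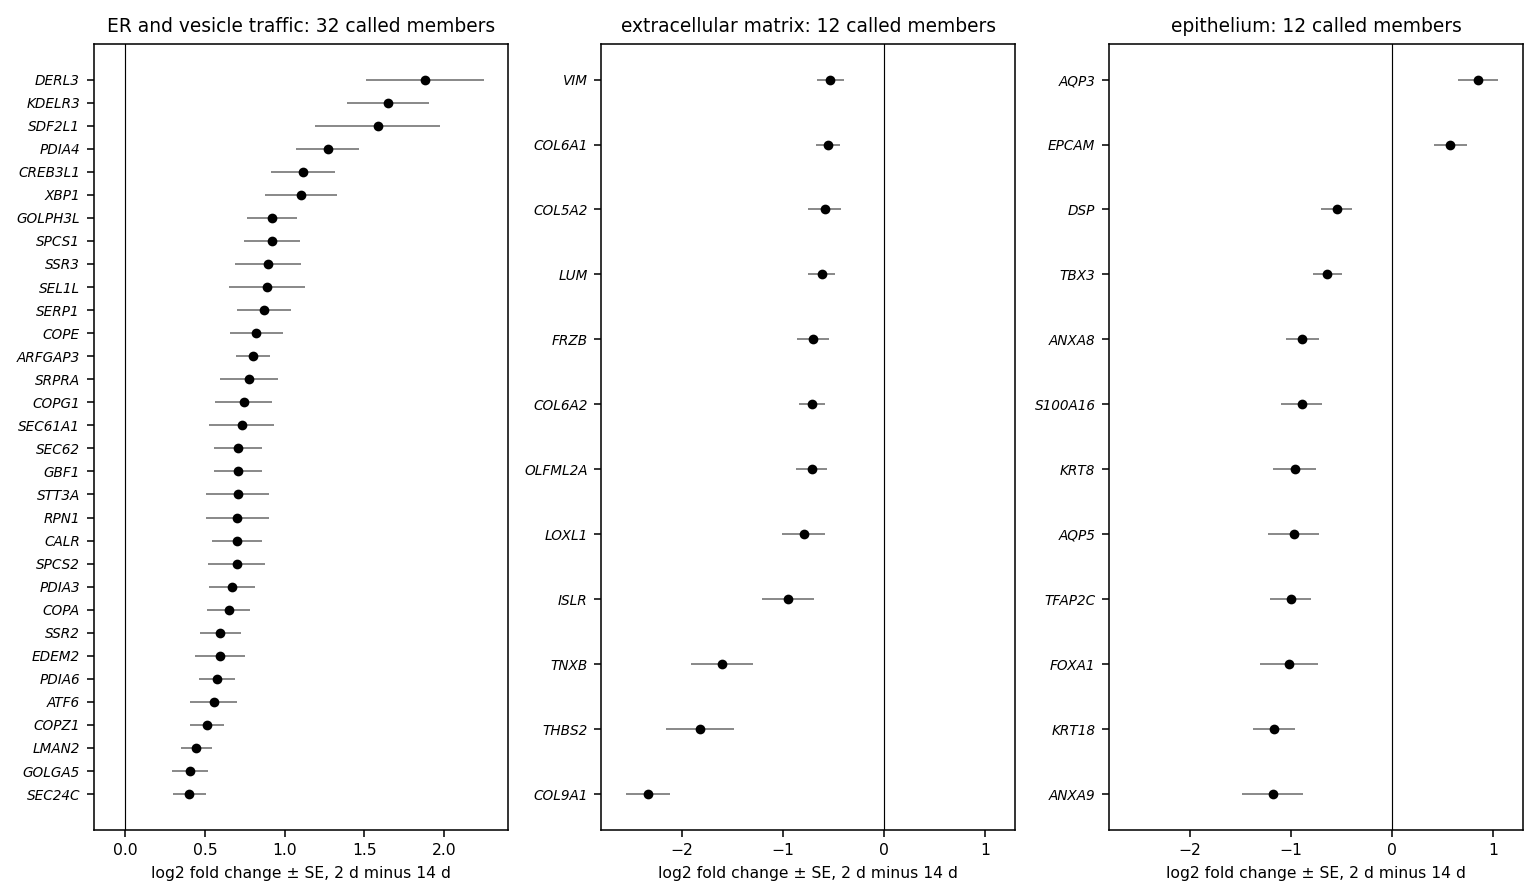
The called members of 3 gene lists, with the log2 fold change of 2 d minus 14 d prepartum as a point and its standard error from edgeR as a bar. All 32 members of the ER list lie above 0, all 12 of the extracellular matrix list lie below it, and of the 12 of the epithelium list only AQP3 and EPCAM lie above it.

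Other parts of the protein machinery gave few calls. The list of N-glycan and nucleotide sugar synthesis had 3 upregulated and 0 downregulated DEG of 16 tested (median 0.37), namely UAP1, which makes UDP-N-acetylglucosamine (log2 fold change 0.76, SE 0.20, edgeR adjusted p = 0.0372), B4GALT3, a galactosyltransferase (log2 fold change 0.41, SE 0.10, edgeR adjusted p = 0.0269), and DOLK, dolichol kinase (log2 fold change 0.41, SE 0.11, edgeR adjusted p = 0.0447), and without 1 library at most 1 of them was called. Among 21 cytosolic ribosomal proteins and translation factors edgeR called 0 (median 0.08), with 3 at an unadjusted p up to 0.05, and limma-voom and DESeq2 called 1 each. Among 13 genes of the mitochondrial ribosome edgeR, limma-voom and DESeq2 called 0, with 2 at an unadjusted p up to 0.05. For 8 proteasome genes edgeR, limma-voom and DESeq2 also called 0, and 0 had such a p. Of 21 splicing genes 1 fell, PRPF39 (log2 fold change -0.38, SE 0.10, edgeR adjusted p = 0.0324), near the 3.61% called lower over all tested genes. Lysosomal genes held 3 upregulated DEG of 17 (median 0.07), led by CTSZ, a cathepsin, which rose from 305, 209 and 158 CPM to 607, 536 and 411 CPM (log2 fold change 1.24, SE 0.17, edgeR adjusted p = 0.00140), with NEU1, a sialidase (log2 fold change 0.52, SE 0.11), and HEXA, a hexosaminidase (log2 fold change 0.37, SE 0.10). Without TMM the sign of HEXA turned, to -0.04.

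Of 13 genes of the mitochondrial genome, all had a log2 fold change above 0 after TMM (median 0.33), a sign that turned without TMM (-0.07). The share of all counts on them was 7.75% ± 0.198 (SD, n = 3) at 14 d and 7.54% ± 0.171 at 2 d prepartum (exact two-sided permutation p = 0.3 without the pairing by sow, where 0.1 is the smallest p possible). COX2 and ATP6 were called (log2 fold change 0.49, SE 0.14, and log2 fold change 0.43, SE 0.12), with edgeR adjusted p values of 0.0421 and 0.0451. Of 19 tested nuclear genes of the respiratory chain 1 was called, UQCR10, a subunit of complex III (log2 fold change 0.52, SE 0.11, edgeR adjusted p = 0.0169). That is near the 5.07% called higher over all tested genes.

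In the lists of solute carriers and of calcium and mineral handling, members rose or were not called, whereas SLC2A12 of the lactose list fell. Of 44 tested solute carriers 5 were upregulated and 0 downregulated, with a median of 0.16, against 2 of 30 and a median of 0.0030 before the list was extended. Over all tested genes 5.07% were called higher. SLC34A2, a sodium-phosphate cotransporter, had 437, 388 and 391 CPM at 14 d and 1402, 1748 and 976 CPM at 2 d prepartum (log2 fold change 1.74, SE 0.18, edgeR adjusted p = 0.000492). SLC7A8, a carrier of large neutral amino acids, had 47.4, 38.1 and 34.4 CPM and 138, 160.0 and 103 CPM (log2 fold change 1.74, SE 0.30, edgeR adjusted p = 0.00617). SLC50A1, a sugar carrier, had 33.0, 25.9 and 31.3 CPM and 80.4, 69.4 and 61.3 CPM (log2 fold change 1.24, SE 0.22, edgeR adjusted p = 0.00686). The groups did not overlap in any of the 3. Of 10 tested genes of calcium and mineral handling 1 was called, ATP2B2, the calcium pump of the apical membrane, which rose from 0.275, 0.0838 and 0.437 CPM to 3.30, 3.27 and 0.591 CPM (log2 fold change 3.19, SE 0.66, edgeR adjusted p = 0.0140). It was lowest in sow 3 at 2 d. Leaving out 1 library gave between 4 and 7 called solute carriers and at most 1 called gene of calcium handling.

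Genes of immune transport and innate defence moved in both directions. PIGR, the receptor that carries polymeric immunoglobulin across the epithelium, rose from 25.7, 27.2 and 17.9 CPM to 127, 189 and 70.9 CPM (log2 fold change 2.39, SE 0.43, edgeR adjusted p = 0.00724). FCGRT, the heavy chain of the neonatal Fc receptor for IgG, had 114, 91.5 and 96.1 CPM and 105, 87.3 and 102 CPM (log2 fold change -0.04, SE 0.13, edgeR adjusted p = 0.879), and its libraries overlapped. LBP, a binding protein of bacterial lipopolysaccharide, rose from 8.98, 11.9 and 7.66 CPM to 202, 360.5 and 103 CPM (log2 fold change 4.45, SE 0.54, edgeR adjusted p = 0.000856). TLR2, a receptor of bacterial lipoproteins, rose from 30.2, 35.2 and 26.3 CPM to 148, 189 and 88.2 CPM (log2 fold change 2.15, SE 0.32, edgeR adjusted p = 0.00271). Both were higher in every sow at the later time point, sow 2 ending highest and sow 3 lowest. CP, the copper-carrying ferroxidase ceruloplasmin, was low at 14 d and rose from 0.321, 0.335 and 0.679 CPM to 3.93, 21.4 and 2.21 CPM (log2 fold change 4.18, SE 1.006, edgeR adjusted p = 0.0249), and the complement gene C4A rose as well (log2 fold change 1.00, SE 0.23, edgeR adjusted p = 0.0210).

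In the list of innate defence and complement 4 of 28 tested members were upregulated and 3 downregulated, beside 5.07% and 3.61% of all tested genes. Its median was -0.09, whereas the 13 members before the extension held 0 upregulated and 1 downregulated DEG (median -0.18). LYZ, lysozyme, fell from 60.9, 24.7 and 35.7 CPM to 14.2, 11.2 and 9.67 CPM (log2 fold change -1.74, SE 0.30, edgeR adjusted p = 0.00594). LGALS3, a galactose-binding lectin, fell from 10.3, 20.2 and 22.6 CPM to 8.79, 7.14 and 10.9 CPM (log2 fold change -0.94, SE 0.21, edgeR adjusted p = 0.0184). SPP1, osteopontin, a secreted phosphoprotein of milk and bone, fell from 18.4, 23.6 and 24.3 CPM to 8.04, 13.7 and 13.6 CPM (log2 fold change -0.95, SE 0.27, edgeR adjusted p = 0.0485), though its mean at 1 d postpartum was 332 CPM, and its sign turned with RIN in the fit (0.40). The fits without 1 library called between 3 and 6 members, and the median of the list ran from -0.24 to 0.07. Among 25 interferon response genes edgeR called 0 (median 0.20, and 0.09 before the list was extended), with 5 at an unadjusted p up to 0.05, 1 by limma-voom and 2 by DESeq2. Of 10 tested genes of antigen presentation 1 was called, SLA-DQA, a class II gene whose reads may be shared with close relatives (log2 fold change -0.37, SE 0.09, edgeR adjusted p = 0.0217).

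**Figure D4:**
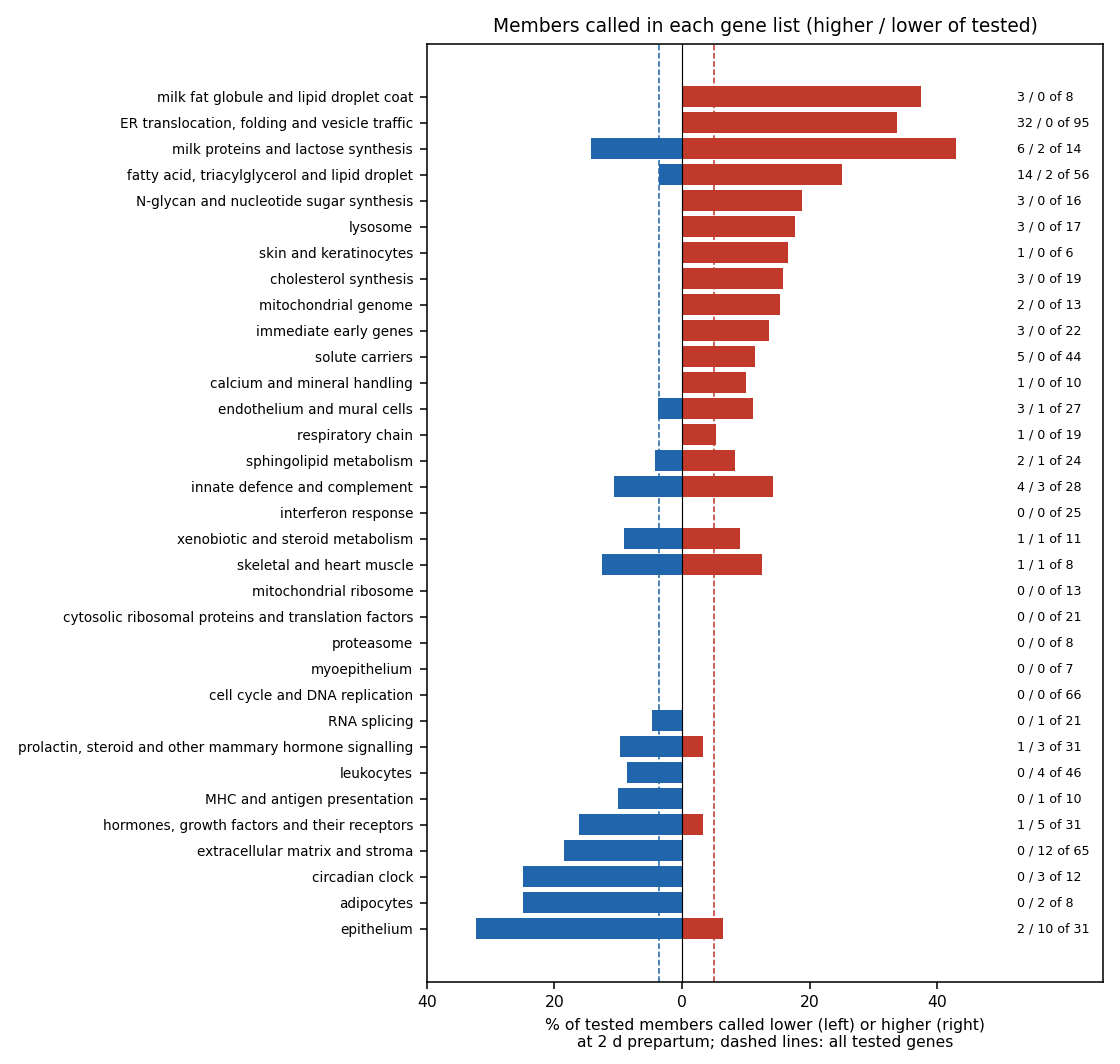
For each gene list with at least 6 tested members, the percent of members called lower at 2 d (blue, left) and higher (red, right), with the counts at the right. The dashed lines mark 3.61% and 5.07%, the shares over all 13503 tested genes.

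Genes of the connective tissue made up part of the decreases. Of 65 tested genes of the extracellular matrix and stroma 12 were downregulated and 0 upregulated, with a median of -0.41, and 8 and 0 of 32 before the list was extended (median -0.41). Over all tested genes 3.61% were called lower and 5.07% higher. COL9A1, a chain of type IX collagen, had 43.8, 165 and 28.7 CPM at 14 d and 6.25, 38.6 and 6.79 CPM at 2 d prepartum (log2 fold change -2.34, SE 0.22, edgeR adjusted p = 0.000261). It fell in every sow, but sow 2 stood far above the others at both time points, so that the groups overlapped. THBS2, an inhibitor of vessel growth in the matrix, fell from 38.4, 26.3 and 52.01 CPM to 7.93, 8.66 and 17.8 CPM (log2 fold change -1.82, SE 0.34, edgeR adjusted p = 0.00766). TNXB, a tenascin of loose connective tissue, fell from 21.7, 34.5 and 67.7 CPM to 14.6, 8.11 and 17.9 CPM (log2 fold change -1.60, SE 0.31, edgeR adjusted p = 0.00952). COL6A2, a chain of type VI collagen, fell from 174, 163 and 229 CPM to 122, 95.4 and 127 CPM (log2 fold change -0.71, SE 0.13, edgeR adjusted p = 0.00724). In THBS2, TNXB and COL6A2 the groups did not overlap. COL11A2, a fibrillar collagen chain outside the list, fell from 9.49, 34.2 and 4.37 CPM to 1.10, 4.30 and 2.36 CPM (log2 fold change -2.43, SE 0.39, edgeR adjusted p = 0.00404).

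COL3A1, the fibrillar collagen that defines the list, had 2185, 3462 and 4542 CPM and 2265, 2297 and 2516 CPM and was not called (log2 fold change -0.49, SE 0.21, edgeR adjusted p = 0.155). VIM, the intermediate filament gene of stromal cells, fell from 673, 682 and 718 CPM to 466, 457 and 515 CPM (log2 fold change -0.53, SE 0.13, edgeR adjusted p = 0.0298). The summed level of the 65 members ran from 9671 to 13967 CPM at 14 d and from 7789.8 to 9129.5 CPM at 2 d prepartum, without overlap, and 56 of the 65 had a lower mean at 2 d. Whether fewer stromal cells in the later biopsies had a part in this was not tested. Leaving out 1 library gave between 3 and 13 calls, fewest without the library of sow 2 at 14 d, and the median stayed between -0.45 and -0.35.

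Adipocyte genes had low levels in the 6 libraries. PLIN1, which coats the lipid droplet of fat cells, fell from 4.08, 0.838 and 2.43 CPM to 0.521, 0.121 and 0.295 CPM (log2 fold change -2.87, SE 0.55, edgeR adjusted p = 0.0102). PLIN4, of the same family, fell from 6.83, 1.55 and 9.12 CPM to 0.636, 0.666 and 0.812 CPM (log2 fold change -2.87, SE 0.79, edgeR adjusted p = 0.0428), with a sign that turned in the fit with RIN (0.80). These were the 2 called of 8 tested members, with 0 upregulated and a median of -0.32. Before its extension by PLIN1, PLIN4, LIPE and PPARG the list had 4 tested members, 0 called by edgeR and a median of 0.14, with the opposite sign. The summed level of the list ran from 25.4 to 44.5 CPM at 14 d and from 29.5 to 33.2 CPM at 2 d, so the groups overlapped. In each fit without 1 library 1 member was called.

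Among epithelial genes the decreases outnumbered the increases, with 10 downregulated and 2 upregulated of 31 tested (median -0.23), and 9 and 1 of 21 before the list was extended (median -0.55). The shares over all tested genes were 3.61% and 5.07%. KRT18, a keratin of luminal cells, fell from 72.6, 83.8 and 59.4 CPM to 29.1, 31.7 and 36.3 CPM (log2 fold change -1.17, SE 0.21, edgeR adjusted p = 0.00644). KRT8, its partner in the same filament, fell from 355, 426 and 341 CPM to 168, 196 and 219 CPM (log2 fold change -0.96, SE 0.22, edgeR adjusted p = 0.0184). TFAP2C, a transcription factor of mammary luminal cells, fell from 367, 326 and 406 CPM to 185, 124 and 251 CPM (log2 fold change -1.004, SE 0.20, edgeR adjusted p = 0.0113). In these 3 genes the groups did not overlap, but KRT8 was called in only 1 of the 6 fits without 1 library. ANXA8, an annexin, fell as well (log2 fold change -0.89, SE 0.16, edgeR adjusted p = 0.00751), and DSP, which anchors keratin at desmosomes, fell from 588, 613 and 568 CPM to 395, 388 and 428 CPM (log2 fold change -0.55, SE 0.16, edgeR adjusted p = 0.0475). Of 2 further members, named after their values were seen, FOXA1, a partner of the estrogen receptor, fell by 1.02 and AQP5, a water channel, by 0.97 on the log2 scale.

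EPCAM, an adhesion molecule of epithelial cells, rose from 552, 676 and 546 CPM to 829.8, 1169 and 688 CPM (log2 fold change 0.58, SE 0.17, edgeR adjusted p = 0.0489), and AQP3, a channel for water and glycerol, from 72.8, 49.9 and 67.6 CPM to 126, 98.7 and 115 CPM (log2 fold change 0.85, SE 0.20, edgeR adjusted p = 0.0219). The summed level of the epithelial list overlapped between the time points, at 4896 to 5061 CPM and 4711 to 5168 CPM. KRT8 and KRT18 had means of 434 and 86.4 CPM at 1 d postpartum. The number of epithelial calls without 1 library lay between 1 and 8, fewest without the library of sow 2 at 2 d. The 7 tested genes of the myoepithelium, the contractile layer, had 0 calls by edgeR, limma-voom and DESeq2 and 0 at an unadjusted p up to 0.05, and ACTA2, smooth muscle actin, had 1189, 1228 and 1129 CPM and 1141, 1077 and 1026 CPM (log2 fold change -0.13, SE 0.12, edgeR adjusted p = 0.532).

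The receptors and ligands of mammary hormones gave few DEG. TNFSF11, the ligand RANKL that relays progesterone to neighbouring epithelial cells, fell from 9.26, 7.29 and 12.9 CPM to 3.59, 2.24 and 6.20 CPM (log2 fold change -1.35, SE 0.29, edgeR adjusted p = 0.0152). TNFRSF11A, its receptor RANK, rose from 46.1, 47.1 and 34.3 CPM to 105, 145 and 75.4 CPM (log2 fold change 1.32, SE 0.28, edgeR adjusted p = 0.0152). Ligand and receptor thus moved in opposite directions in each of the 3 sows. PGR, the progesterone receptor, had 2.57, 1.89 and 2.13 CPM and 1.79, 0.908 and 1.70 CPM and was not called (log2 fold change -0.62, SE 0.24, edgeR adjusted p = 0.128). CITED1, a coactivator of estrogen signalling, fell from 6.74, 6.79 and 6.501 CPM to 3.12, 3.75 and 4.28 CPM (log2 fold change -0.85, SE 0.23, edgeR adjusted p = 0.0426), and so did MET, the receptor of hepatocyte growth factor (log2 fold change -0.75, SE 0.20, edgeR adjusted p = 0.0350).

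In the list of prolactin, steroid and other mammary hormone signalling 1 of 31 tested genes was upregulated and 3 were downregulated, with a median of 0.21. Over all tested genes the shares were 5.07% and 3.61%. PRLR, the prolactin receptor, had a log2 fold change of 0.09 (SE 0.225), STAT5A, its main transducer, of 0.08 (SE 0.114), ELF5, a transcription factor of alveolar cells, of 0.53 (SE 0.218), ESR1, the estrogen receptor, of 0.49 (SE 0.214) and OXTR, the oxytocin receptor, of 0.33 (SE 0.241). None of these 5 was called, with edgeR adjusted p values from 0.143 to 0.843. Of 31 other hormones, growth factors and receptors, TNFSF11 again included, 1 was upregulated and 5 downregulated (median -0.10).

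Besides TNFSF11, the named decreases of that list were of 3 receptor genes. ACVR1B, an activin receptor, fell from 31.8, 36.0 and 27.7 CPM to 15.0, 14.8 and 12.99 CPM (log2 fold change -1.15, SE 0.22, edgeR adjusted p = 0.00902). ACVR1, a receptor of bone morphogenetic proteins, fell from 23.1, 22.3 and 24.6 CPM to 15.1, 13.1 and 17.4 CPM (log2 fold change -0.62, SE 0.14, edgeR adjusted p = 0.0200). AMHR2, the receptor of anti-Müllerian hormone, fell from 3.76, 2.85 and 2.04 CPM to 0.926, 0.908 and 1.70 CPM (log2 fold change -1.29, SE 0.30, edgeR adjusted p = 0.0209). All 3 fell without overlap, but ACVR1 and AMHR2 were each called in 2 of the 6 fits without 1 library. IL13RA2, a decoy receptor of interleukin 13, rose from 3.53, 3.81 and 2.23 CPM to 5.61, 9.75 and 4.06 CPM (log2 fold change 0.97, SE 0.25, edgeR adjusted p = 0.0345). Leaving out either library of sow 2 left 0 genes called in both lists, and the other fits without 1 library called up to 5 and up to 3.

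The largest named decreases outside these lists were of genes with various roles. NDP, the Wnt pathway ligand norrin, had 68 reads over the libraries of 14 d and 3 over those of 2 d prepartum, a ratio of 16.2 with a 95% interval from 5.31 to 80.5 for counting error only (edgeR adjusted p = 0.00854). APCDD1L, a relative of a Wnt inhibitor, fell from 40.6, 14.3 and 44.4 CPM to 2.43, 0.847 and 10.4 CPM (log2 fold change -3.22, SE 0.36, edgeR adjusted p = 0.000603). GABRP, a subunit of the GABA receptor found in epithelia, fell from 74.7, 96.8 and 72.5 CPM to 12.4, 15.4 and 21.3 CPM (log2 fold change -2.39, SE 0.42, edgeR adjusted p = 0.00627). All 3 fell in every sow without overlap, a condition for the 12 largest named decreases. PCDH8, a protocadherin, was called (log2 fold change -3.49, SE 0.56, edgeR adjusted p = 0.00404), but with 0.0458, 3.81 and 3.78 CPM and 0, 0.121 and 0.664 CPM its groups overlapped, since sow 1 was near 0 at both time points.

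HEPACAM, an adhesion molecule, fell from 15.99, 18.9 and 8.78 CPM to 4.34, 3.27 and 2.73 CPM (log2 fold change -2.08, SE 0.29, edgeR adjusted p = 0.00200). C1QL2, a secreted protein of the C1q family, fell from 9.53, 8.80 and 8.30 CPM to 1.33, 0.847 and 5.54 CPM (log2 fold change -2.10, SE 0.46, edgeR adjusted p = 0.0178). AGT, the precursor of angiotensin, was low and fell from 1.19, 0.964 and 1.99 CPM to 0.347, 0 and 0.221 CPM (log2 fold change -2.76, SE 0.74, edgeR adjusted p = 0.0375). Each fell in all 3 sows without overlap, again a condition of that choice. The remaining named decreases of this size, APC2, C2orf72 and SIDT1, had at most 2.72 CPM in any of the 6 libraries, with log2 fold changes of -2.40, -2.72 and -2.21.

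At high levels the named decreases were smaller. CTNNB1, which encodes beta-catenin of cell junctions and Wnt signalling, fell from 1414, 1389 and 1680.1 CPM to 835, 773 and 1091 CPM (log2 fold change -0.74, SE 0.17, edgeR adjusted p = 0.0185). ACTN4, an actin crosslinker, fell from 418, 381 and 433 CPM to 259, 225 and 294 CPM (log2 fold change -0.67, SE 0.12, edgeR adjusted p = 0.00821). SAT1, which acetylates polyamines, fell from 959, 722 and 808 CPM to 496, 589 and 614 CPM (log2 fold change -0.56, SE 0.15, edgeR adjusted p = 0.0420). In these 3 genes, and in VIM and DSP given above, no library of 2 d reached the lowest of 14 d. Together these 5 are the called and named decreases with the highest mean level.

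A few large increases lay outside milk synthesis. CYP1A1, a cytochrome P450 that the aryl hydrocarbon receptor induces, had 0.917, 0.419 and 0.388 CPM at 14 d and 12.6, 32.1 and 90.3 CPM at 2 d prepartum (log2 fold change 6.07, SE 0.76, edgeR adjusted p = 0.000939). Here sow 3 was the highest, unlike in the milk protein genes. Its mean had been 0.496 CPM at the 10 d time point, was 0.545 CPM at 6 d and stood at 3.73 CPM at 1 d postpartum. AHR, which encodes the aryl hydrocarbon receptor, fell from 259, 263 and 296 CPM to 81.4, 99.9 and 166.1 CPM (log2 fold change -1.29, SE 0.23, edgeR adjusted p = 0.00672). These were the only 2 called of 11 tested genes of xenobiotic and steroid metabolism (median 0.18), and both were called in each fit without 1 library.

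KRT39, a keratin best known from hair, rose from 0.321, 0.629 and 0.291 CPM to 6.08, 24.8 and 2.80 CPM (log2 fold change 4.54, SE 0.54, edgeR adjusted p = 0.000783). ITPRID1, a gene without a role stated here, rose from 0.229, 0.503 and 0.146 CPM to 4.40, 15.1 and 0.738 CPM (log2 fold change 4.25, SE 0.69, edgeR adjusted p = 0.00442). PDE6H, a phosphodiesterase subunit known from cones of the retina, had 0 reads in each library of 14 d and 32 over those of 2 d prepartum, a ratio of 14.9 against a floor of 3 counts over the group, with 11.5 as the lower 95% limit for counting error (edgeR adjusted p = 0.0157). Sow 2 was the highest at 2 d in KRT39 and ITPRID1, and sow 3 the lowest.

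**Figure D5:**
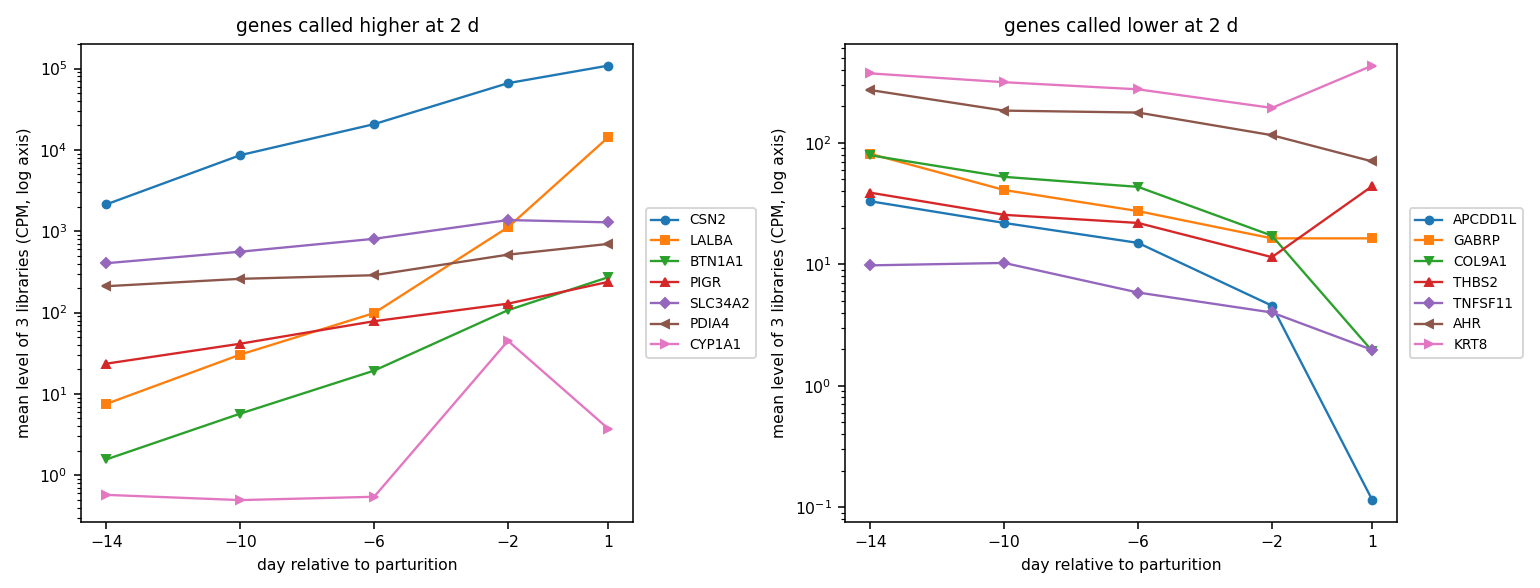
The mean level of 3 libraries at each of the 5 time points, in CPM on a log axis, for 7 genes called higher (left) and 7 called lower (right) at 2 d than at 14 d prepartum. CSN2, LALBA, BTN1A1 and PIGR climb through 10 d and 6 d, CYP1A1 stands high at 2 d only, and KRT8 and THBS2 are higher again at 1 d postpartum.

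Of the circadian clock genes 3 fell. PER2, a repressor of the circadian loop, fell from 25.8, 28.5 and 31.9 CPM to 13.3, 11.5 and 14.7 CPM (log2 fold change -1.13, SE 0.23, edgeR adjusted p = 0.0130). CRY2, its partner, fell from 10.9, 10.7 and 11.3 CPM to 6.31, 4.36 and 8.34 CPM (log2 fold change -0.82, SE 0.17, edgeR adjusted p = 0.0147), and BHLHE41, another repressor, from 30.8, 37.6 and 33.0 CPM to 15.0, 16.7 and 24.7 CPM (log2 fold change -0.89, SE 0.22, edgeR adjusted p = 0.0288). No library of 2 d reached the lowest of 14 d in these 3, which were the 3 called of 12 tested members (median -0.15). Over all tested genes 3.61% were called lower. The Methods speak of the morning of the biopsies without an hour for each, and the part of the time of day was not tested. Without either library of sow 2 edgeR called 0 clock genes, and without another library from 1 to 3.

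Immediate early genes had 3 upregulated and 0 downregulated DEG of 22 tested, while their median was -0.27, so that the calls and the median differed in sign. Before the extension 2 of 12 were upregulated and the median was -0.06. GADD45G, a growth arrest gene, rose from 51.8, 40.7 and 27.4 CPM to 78.9, 126 and 121 CPM (log2 fold change 1.40, SE 0.30, edgeR adjusted p = 0.0151). DUSP1, a phosphatase of MAP kinases, rose from 41.0, 49.4 and 19.7 CPM to 77.3, 131 and 61.3 CPM (log2 fold change 1.301, SE 0.36, edgeR adjusted p = 0.0424), and CITED2, a transcriptional coregulator, from 18.8, 9.94 and 11.2 CPM to 18.8, 42.3 and 27.1 CPM (log2 fold change 1.09, SE 0.31, edgeR adjusted p = 0.0494). In CITED2 the lowest library of 2 d, that of sow 1, was at the level of the same sow at 14 d. At most 2 members were called in a fit without 1 library, and 0 without the library of sow 2 at 14 d or that of sow 3 at 2 d.

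Genes of cell division did not pass the test. Of 66 tested genes of the cell cycle and DNA replication edgeR called 0, with 6 at an unadjusted p up to 0.05, limma-voom called 0 and DESeq2 2. Their median log2 fold change was -0.18, with 57 of 66 below 0, and it became 0.03 without the library of sow 2 at 14 d prepartum. CDK1, the kinase of mitotic entry, had 15.3, 23.9 and 20.3 CPM and 20.1, 22.3 and 15.5 CPM (log2 fold change -0.06, SE 0.36, edgeR adjusted p = 0.940). The summed level of the list ran from 1251 to 1749 CPM at 14 d and from 1326 to 1369 CPM at 2 d prepartum, where the spread between sows was narrower.

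Vessel genes gave few DEG. Of 27 tested genes of endothelium and mural cells 3 were upregulated and 1 downregulated, and their median was -0.05 (-0.11 before the list was extended), with the 1 of 27 near the 3.61% of all tested genes that were called lower. NOS3, the nitric oxide synthase of endothelium, rose from 15.8, 12.03 and 10.7 CPM to 25.3, 25.4 and 22.5 CPM (log2 fold change 0.94, SE 0.13, edgeR adjusted p = 0.00146). EPAS1, a hypoxia-inducible factor, rose from 187, 124 and 146 CPM to 228, 238 and 231 CPM (log2 fold change 0.62, SE 0.12, edgeR adjusted p = 0.00910). ADGRF5, an adhesion receptor of capillaries, rose as well (log2 fold change 0.73, SE 0.15, edgeR adjusted p = 0.0147), and HEY2, a Notch target, fell from 9.67, 12.4 and 12.8 CPM to 6.36, 6.78 and 6.05 CPM (log2 fold change -0.84, SE 0.16, edgeR adjusted p = 0.00905). PECAM1, which defines endothelium, had 287, 271 and 286 CPM and 331, 352 and 332 CPM and was not called (log2 fold change 0.27, SE 0.11, edgeR adjusted p = 0.137). Leaving out either library of sow 2 left 1 member called, and over the 6 such fits the median lay on either side of 0.

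Leukocyte genes had 4 downregulated and 0 upregulated DEG of 46 tested (median -0.23), beside 3.61% and 5.07% of all tested genes. Besides LYZ these were FES, a tyrosine kinase of myeloid cells, which fell from 79.1, 65.2 and 54.3 CPM to 45.6, 41.4 and 44.3 CPM (log2 fold change -0.59, SE 0.10, edgeR adjusted p = 0.00627), DEF6, a guanine nucleotide exchange factor of lymphocytes (log2 fold change -0.86, SE 0.19, edgeR adjusted p = 0.0178), and PIK3AP1, an adaptor of B cells (log2 fold change -0.55, SE 0.15, edgeR adjusted p = 0.0406). PTPRC, which marks leukocytes in general, had 36.7, 32.7 and 38.1 CPM and 31.5, 30.0 and 27.5 CPM and was not called (log2 fold change -0.27, SE 0.11, edgeR adjusted p = 0.138). The summed level of the list was lower at 2 d in every sow, at 631 to 717 CPM at 14 d against 576 to 596 CPM at 2 d prepartum. Whether fewer leukocytes in the tissue had a part in the decrease of LYZ was not tested. In the fits without 1 library from 2 to 4 members were called.

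Lists for cells that a mammary biopsy holds in small amounts were read as checks of the samples. HBB, the beta chain of hemoglobin, had 20.6, 74.2 and 73.8 CPM and 153, 196 and 51.8 CPM (log2 fold change 1.14, SE 0.46, edgeR adjusted p = 0.139). Of 2 tested erythroid genes edgeR, limma-voom and DESeq2 called 0, and 2 had an unadjusted p up to 0.05. Of 8 tested muscle genes PGAM2, a glycolytic enzyme, rose from a mean of 4.85 to 18.3 CPM (log2 fold change 1.89, SE 0.20, edgeR adjusted p = 0.000526). PVALB, a calcium buffer, was low and fell from a mean of 1.47 to 0.246 CPM (log2 fold change -2.52, SE 0.56, edgeR adjusted p = 0.0229). ACTA1, skeletal actin, was at 1.47, 1.43 and 1.504 CPM and 2.72, 2.18 and 1.55 CPM. Of 6 tested skin genes KRT79 was called and rose, from 10.4, 18.9 and 19.5 CPM to 21.7, 76.1 and 51.6 CPM (log2 fold change 1.53, SE 0.23, edgeR adjusted p = 0.00240). KRT1 and KRT10 were not called, and in sow 1 their log2 differences were 0.19 and 0.17. Their lower means at 2 d rest mostly on the library of sow 2 at 14 d. Without it the median of the list went from -2.85 to 0.23.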

How the data were processed

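Mammary biopsies of 3 sows at 5 time points gave 15 single-read messenger RNA libraries. The authors aligned reads to Sscrofa10.2 with STAR and deposited raw counts per gene from featureCounts, counted by strand over the exons of an Ensembl annotation per the file headers, whereas the Methods name RefSeq. The submitters' processing notes give FastQC 0.11.15, STAR 2.5.1b and Subread 1.5.0. Multi-mapping reads are not counted under the command in the headers, so genes with close copies may be undercounted.

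From the counts, CPM was computed with TMM factors, and genes reaching a CPM of 1 in 3 or more libraries were tested with edgeR 4.0.16 in R 4.3.3 on all 15 libraries, with time and sow in the model. The study fitted limma-voom with time as fixed and animal as random effect, and here edgeR was the main test, with the sow as a block. The sow of each library was taken from the sequencing summary of the paper by exact match of its totals. Gene-wise deviations from the mean of the time point correlated at 0.416, 0.440 and 0.409 between the 14 d and 2 d libraries of one sow, and between -0.281 and -0.115 across sows, so the sows pair the libraries. No pair of libraries of one time point held identical counts. Settings tried were limma-voom (limma 3.58.1), DESeq2 1.42.0, other normalizations, filters and thresholds, RIN as a covariate, the 6 libraries alone and each library left out. The edgeR, limma-voom and DESeq2 steps were tested on simulated data. With the sow as a block, edgeR p-values measure the spread within sows that time leaves unexplained, over all 15 libraries. Differences in level between the 3 sows are taken out, and the p-values still rest on 3 animals.

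Names came from a reference table for 11804 IDs and from the gene table of the paper for 292 more. The paper's table, which is held here only in part, also gives fold changes and p-values of the authors' own comparisons, which were not used. Named genes were the 12 largest named DEG without overlap in each direction, up to 4 DEG of each list and direction by smallest p with the members that define a list, the 2 largest changes of all in each direction, and the 5 named DEG with the highest mean CPM in each direction. The members, gene lists and tests were chosen with earlier results of these data known, and most lists were extended, and others added, once the name table was at hand. No sequence is shown because none was at hand for these genes.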

Additional observations from a re-analysis of the deposited data

How the results depend on the processing

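The 684 upregulated and 488 downregulated genes became 263 and 121 with no replicate block, that is, without the sow, 266 and 3059 with total counts in place of TMM, 184 and 111 at an adjusted p of 0.01, and 0 and 0 with RIN as a covariate. With the 6 libraries alone they were 1039 and 780, and with DESeq2 the downregulated genes were 855. Leaving out 1 library gave from 177 to 532 upregulated and from 105 to 374 downregulated genes. Counts under limma-voom, RLE factors, TMM without the 10 highest genes, the other filters and the adjusted p of the comparison alone stayed within 1.5 times of these. The cause of these shifts was not tested. Of the 1172 genes, 920 were called with the same sign by limma-voom, 1160 by DESeq2 and 1002 with the 6 libraries alone. Signs turned for HEXA with total counts (-0.036) and, with RIN, for SPP1 (0.40) and PLIN4 (0.80), and for no other named gene called under the main model. With 3 sows, changes near the median SE of 0.18 on the log2 scale could not be told from 0, and genes with a few reads per library had wide errors.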

Other observations

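The 3 sows did not change by the same amount. Sow 3 had the smallest change of the 3 in 415 of the 684 upregulated genes and in 264 of the 488 downregulated genes, and sow 2 in 73 and 73. The median log2 difference between the libraries of a sow was 0.84, 1.00 and 0.64 in sows 1, 2 and 3 over the upregulated genes and -0.76, -0.93 and -0.63 over the downregulated genes. All 3 sows moved in one direction in 1164 of the 1172 genes. That count is a description, since a fit with the sow as a block favours genes in which the sows agree.

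As a description only, since the choice of genes fixes the direction from 14 d to 2 d, the means moved step by step in one direction from 14 d through 10 d and 6 d to 2 d in 493 of the 684 upregulated and in 324 of the 488 downregulated genes. In 218 upregulated genes the mean at 2 d was the highest of the 5 time points, and in 203 downregulated genes it was the lowest. Downregulated genes had a median exon length of 2656 bases, upregulated genes of 1957 bases and all tested genes of 2046 bases, and their median level was 14.7, 31.2 and 15.4 CPM.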
